A study of Homo sapiens with 2 samples.

Results

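The interferon-induced transmembrane (IFITM) genes were selected by name, and all 4 of the genes asked for, *IFITM1*, *IFITM2*, *IFITM3*, and *IFITM10*, were present once among the 33538 genes of both libraries. The libraries were from HCT116, a human colon cancer cell line, collected 7 days after plating. Decitabine (DAC) had been given at a dose of 0.5 μM on days 1 and 3, with its removal on day 5, and the control was mock-treated HCT116. DAC is a cytidine analog that traps DNA methyltransferases, so that DNA methylation is lost as cells divide. Single cells were captured in droplets, transcripts were tagged near their 3′ end with a unique molecular identifier (UMI), and 1 library per condition was made, with 1783 mock-treated and 1751 DAC-treated cells. Neither condition was replicated, so differences were not tested, and intervals are exact 95% intervals that cover counting error only.

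IFITM proteins are small membrane proteins that hinder the fusion of viruses with cell membranes. *IFITM1*, *IFITM2*, and *IFITM3* are classical interferon-stimulated genes, whose transcription rises when interferon signaling activates transcription factors at interferon-stimulated response elements. *IFITM1* acts mainly at the cell surface, whereas *IFITM2* and *IFITM3* carry an N-terminal extension with a tyrosine-based sorting signal and act mainly in endosomes. *IFITM10* is a distant member that has no established antiviral role, and *IFITM5*, which lies in the same cluster, is a bone gene.

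On hg38, *IFITM2* lies on chromosome 11 from 303655 to 309397, and *IFITM1* starts 643 bases after its end and runs from 310041 to 315272 on the same (plus) strand. *IFITM3* lies on the minus strand from 319676 to 329475, with 4403 bases between its end and that of *IFITM1*. *IFITM10* lies on the minus strand from 1732406 to 1750595, 1402930 bases further along the chromosome. The canonical transcripts of the first 3 genes have 2 exons each and 375 coding bases in *IFITM1*, 396 in *IFITM2*, and 399 in *IFITM3*. *IFITM10* has 3 exons and 684 coding bases. The first 90 coding bases are shown for the 3 clustered genes because they hold the difference in cell location, with the 4 codons of the sorting signal in capitals. This signal was found from base 55 in *IFITM2* and from base 58 in *IFITM3*, and no match was found in the first 90 bases of *IFITM1*.
*IFITM1*: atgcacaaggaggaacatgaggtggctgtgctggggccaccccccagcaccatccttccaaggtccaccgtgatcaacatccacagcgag
*IFITM2*: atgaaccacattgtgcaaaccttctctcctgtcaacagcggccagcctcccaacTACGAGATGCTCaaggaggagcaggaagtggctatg
*IFITM3*: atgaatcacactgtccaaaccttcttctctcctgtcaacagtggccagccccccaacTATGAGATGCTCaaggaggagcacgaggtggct

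Because the clustered genes are close copies, the extent to which a read can be told apart between them was examined first. The coding sequences of *IFITM2* and *IFITM3* were identical at 93.9% of 396 aligned bases. Those of *IFITM1* and *IFITM3* were identical at 87.5% of 336 aligned bases, and *IFITM10* was identical to the other members at 66.8 to 69.9% of aligned bases. The longest identical stretch of *IFITM1* and *IFITM3* had 141 bases, and *IFITM2* differed from it at 3 bases. It is shown because a read inside it cannot be assigned to *IFITM1* or *IFITM3*, with the bases that differ in *IFITM2* in capitals.
*IFITM1*: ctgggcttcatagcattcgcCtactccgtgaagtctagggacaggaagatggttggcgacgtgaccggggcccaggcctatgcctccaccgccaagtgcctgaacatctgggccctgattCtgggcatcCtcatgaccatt
*IFITM3*: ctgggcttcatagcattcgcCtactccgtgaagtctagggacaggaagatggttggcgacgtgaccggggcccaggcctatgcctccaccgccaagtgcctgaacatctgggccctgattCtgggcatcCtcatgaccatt
*IFITM2*: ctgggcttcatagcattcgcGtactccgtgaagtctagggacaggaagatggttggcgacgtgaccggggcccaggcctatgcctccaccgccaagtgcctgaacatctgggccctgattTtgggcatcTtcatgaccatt
The stretch lies inside the coding sequence and ends 243 bases from the 3′ end of the *IFITM1* transcript, 207 from that of *IFITM3*, and 275 from that of *IFITM2*. A window of 91 bases, a read length chosen here, was then moved along the last 400 bases of each transcript and compared with hg38 and with the spliced transcripts of the other members. Differences were counted only where a single alignment spanned the whole window. Of the 310 windows of *IFITM1*, 51 had an identical copy elsewhere, all in the *IFITM3* transcript, and 51 windows of *IFITM3* had one in *IFITM1*. For *IFITM2*, 9 windows had an identical copy in both other transcripts, and 6 had one outside the family. Windows that ended within 200 bases of the 3′ end, a limit chosen here, were examined apart. The fewest differences from any place whose alignment spanned such a window were 19 in *IFITM1*, 4 in *IFITM2*, and 2 in *IFITM3*. Places aligned over part of a window were not counted, such as 60 bases of *IFITM3*, 81.7% identical to the end of *IFITM1*. Of the windows of *IFITM2*, 82 were spanned by no alignment, although adjoining alignments to *IFITM3*, 94.2% and 92.5% identical, covered them in parts. By this count, windows of *IFITM1* in this part were the furthest from any other copy, and those of *IFITM3* the closest. Since the UMI tables hold no read positions, the number of UMIs that were lost or moved between members is not known. In *IFITM10*, none of the windows had a match elsewhere.

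**Figure D1:**
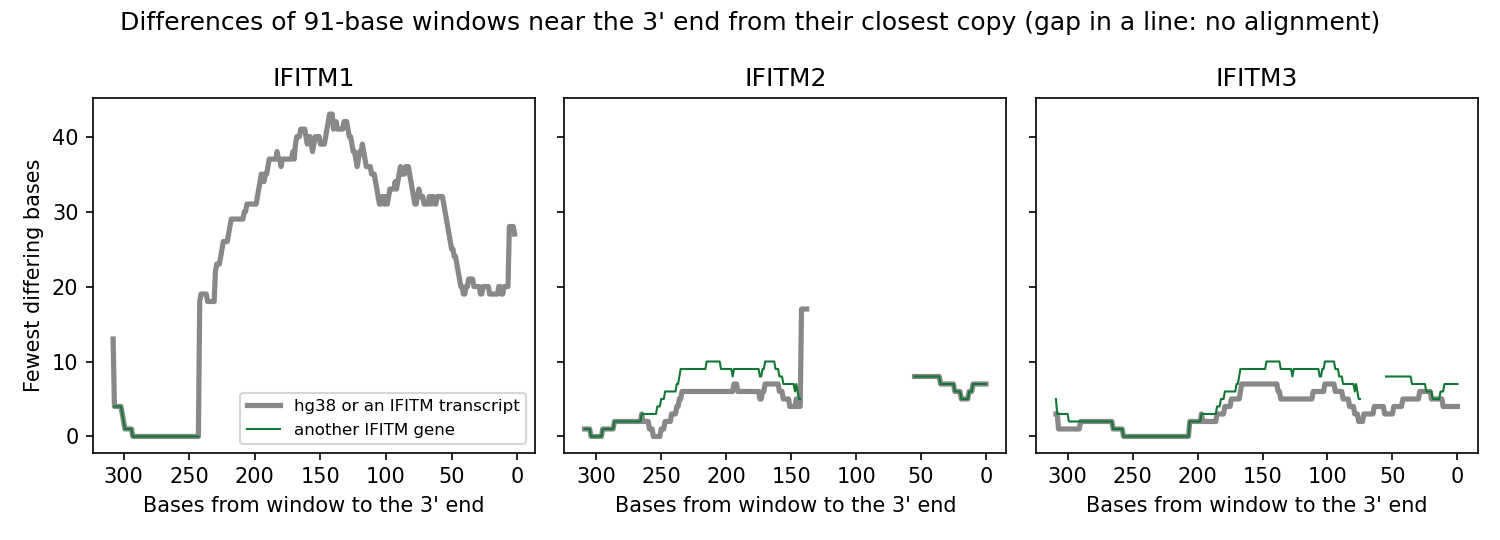
Fewest differing bases between each 91-base window near the 3′ end of 3 IFITM transcripts and its closest copy, against the distance in bases from the window to the 3′ end. Grey lines cover all of hg38 and the IFITM transcripts, and green lines the other IFITM genes alone. Only alignments that span the whole window are counted, and gaps mark windows that no single alignment spans. Identical copies lie more than 200 bases from the 3′ end in every panel. Windows of *IFITM1* that end within 200 bases of it differ at 19 bases or more from the places counted.

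The members differed in how their levels compared between the libraries. *IFITM1* was scarce in mock-treated cells and higher in DAC-treated cells, *IFITM2* was lower, *IFITM3* was close to its level in mock-treated cells, and *IFITM10* was at the limit of detection in both. The mock-treated library held 123 UMIs of *IFITM1* (95% confidence interval 102 to 147), and the DAC-treated library held 593 (546 to 643). Scaled to all UMIs of the library (counts per 1000000 UMIs, CPM), this was 2.46 CPM in mock-treated and 10.0 CPM in DAC-treated cells, a ratio of 4.08 (3.35 to 4.99). *IFITM2* had 5543 UMIs in mock-treated and 4934 UMIs in DAC-treated cells. Its level was 111 CPM and 83.6 CPM, a ratio of 0.752 (0.724 to 0.782). *IFITM3* had 16170 UMIs in mock-treated and 21259 UMIs in DAC-treated cells. Its level was 324 CPM and 360.0 CPM, a ratio of 1.11 (1.09 to 1.13). The intervals of the ratios of these 3 genes did not overlap one another. The DAC-treated library was larger, with 59046165 UMIs against 49911689, and by median-of-ratios scaling the log2 ratio of the typical gene was 0.18 above zero, so that the log2 ratio of *IFITM3* was 0.15 by CPM and -0.03 by median-of-ratios scaling. The direction of *IFITM3* thus depended on the scaling, whereas *IFITM1* (1.84) and *IFITM2* (-0.59) kept theirs. *IFITM10* had 2 UMIs in mock-treated cells and 1 UMI in DAC-treated cells, and *IFITM5* had 0 and 2 UMIs, too few for a ratio. As each transcript is tagged at its 3′ end, levels are not scaled to length, and within each library the order of the levels was *IFITM3*, *IFITM2*, *IFITM1*, and *IFITM10*, and the intervals of neighbors in this order did not overlap.

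Of the 3 members with enough UMIs for a ratio, *IFITM1* alone was past a 2-fold difference, in the direction of DAC-treated cells. Over the 18461 genes with 10 UMIs or more in the library with more, 25.8% were higher in DAC-treated cells by 2-fold or more and 8.12% were lower by 2-fold or more. A ratio as high as that of *IFITM1* was present for 12.8% of these genes, and a ratio as low as that of *IFITM2* for 19.8%. Among the 6447 genes with 1000 UMIs or more, 11.9% were higher and 4.95% lower by 2-fold or more, 2.34% had a ratio as high as that of *IFITM1*, which itself had fewer UMIs, and 15.9% had one as low as that of *IFITM2*. Ratios of the size seen for *IFITM1* and *IFITM2* were therefore present in many other genes.

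**Figure D2:**
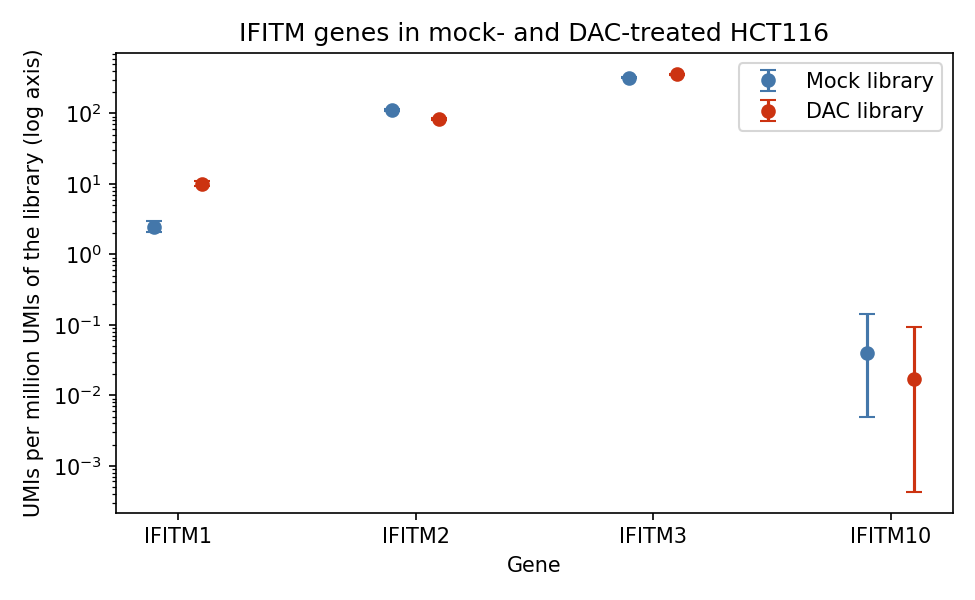
Level of the 4 IFITM genes in CPM, on a log axis, in the mock- and DAC-treated libraries; points are library sums and bars are exact Poisson 95% intervals for counting error. *IFITM1* is at 2.46 CPM in the mock-treated and 10.0 CPM in the DAC-treated library, *IFITM2* at 111 and 83.6 CPM, and *IFITM3* at 324 and 360.0 CPM.

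Within the family, shares do not depend on how libraries are scaled. *IFITM1*, *IFITM2*, and *IFITM3* together had 437 CPM in mock-treated and 454 CPM in DAC-treated cells. *IFITM3* made up 74.1% (95% confidence interval 73.5 to 74.6%) of these UMIs in the mock-treated library and 79.4% (78.9 to 79.8%) in the DAC-treated library. The share of *IFITM2* was 25.4% (24.8 to 26.0%) in mock-treated and 18.4% (18.0 to 18.9%) in DAC-treated cells, so that there were 2.92 UMIs of *IFITM3* for each UMI of *IFITM2* in the mock-treated library and 4.31 in the DAC-treated one. The share of *IFITM1* was 0.563% (0.468 to 0.672%) in mock-treated and 2.21% (2.04 to 2.40%) in DAC-treated cells.

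At the level of single cells, *IFITM1* was detected in few cells and *IFITM3* in most. At least 1 UMI of *IFITM1* was present in 99 mock-treated cells (5.55%, 95% confidence interval 4.54 to 6.72%) and in 247 DAC-treated cells (14.1%, 12.5 to 15.8%). With 3 UMIs or more, the study's threshold for upregulation, these numbers were 4 cells (0.224%, 0.0612 to 0.573%) and 74 cells (4.23%, 3.33 to 5.28%). The study applied this threshold to DAC-treated cells, and here it was applied to both libraries. No mock-treated cell had 10 UMIs or more of *IFITM1*, which allows a share of up to 0.207% (upper limit of the exact interval), and 7 DAC-treated cells did, with a maximum of 25 UMIs against 6 in mock-treated cells. The 5% of cells with the most *IFITM1* held 91.9% of its UMIs in the mock-treated and 68.8% in the DAC-treated library, a measure that is high for any gene detected in few cells.

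*IFITM2* was detected in 1214 mock-treated cells (68.1%, 65.9 to 70.2%) and in 1011 DAC-treated cells (57.7%, 55.4 to 60.1%). The median of *IFITM2* was 2 UMIs in a mock-treated cell, the quartiles 0 and 4, and the maximum 32, and in DAC-treated cells the median was 1, the quartiles were 0 and 4, and the maximum was 41. *IFITM3* was detected in 1417 mock-treated cells (79.5%, 77.5 to 81.3%) and in 1361 DAC-treated cells (77.7%, 75.7 to 79.7%), which overlapped within counting error. The median of *IFITM3* was 6 UMIs in a mock-treated cell, the quartiles 1 and 13, and the maximum 73, and in DAC-treated cells the median was 8, the quartiles were 1 and 19, and the maximum was 150. With 10 UMIs or more, *IFITM3* was present in 35.6% (33.4 to 37.9%) of mock-treated and 46.1% (43.7 to 48.5%) of DAC-treated cells. The order was the opposite at a minimum of 3 UMIs, with 67.4% of mock-treated and 63.7% of DAC-treated cells. The DAC-treated library had more UMIs per cell. *IFITM10* was detected in 2 cells of the mock-treated library (0.112%, 0.0136 to 0.405%) and 1 of the DAC-treated library (0.0571%, 0.00145 to 0.318%), with 1 UMI each.

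**Figure D3:**
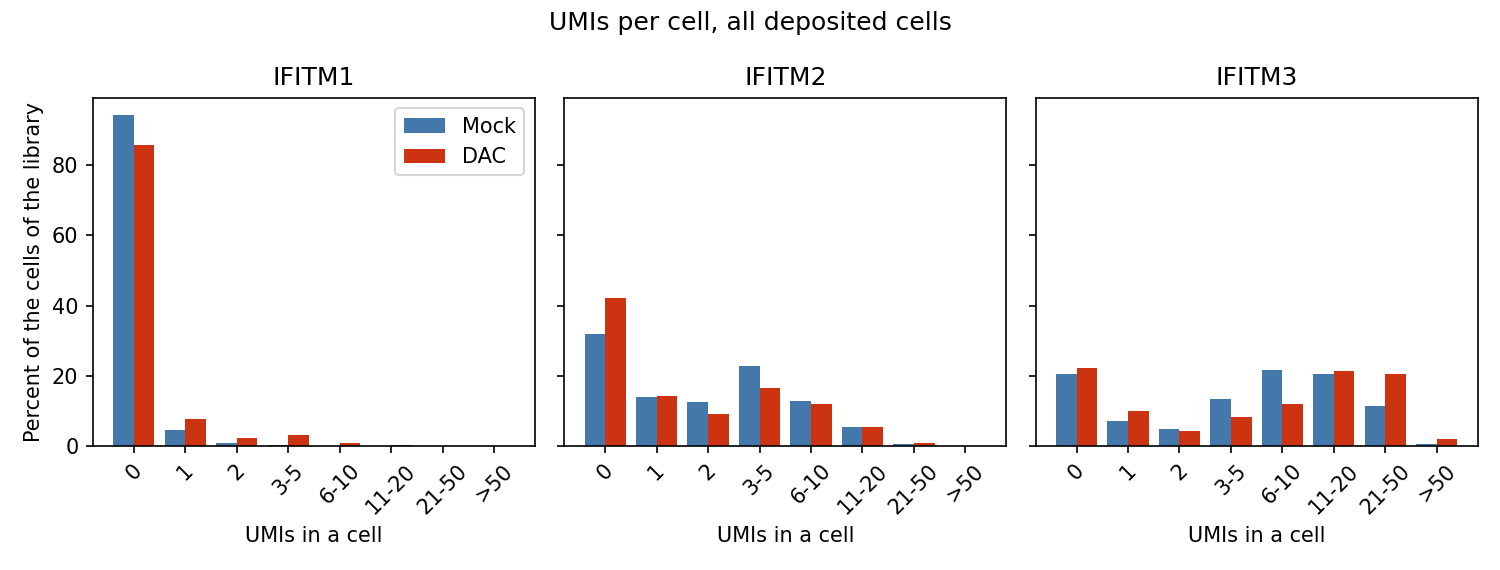
Percent of the cells of each library (vertical axis) by the number of UMIs of *IFITM1*, *IFITM2*, or *IFITM3* in the cell (horizontal axis), for all 1783 mock-treated and 1751 DAC-treated cells. *IFITM1* is at 0 in 94.4% of mock-treated and 85.9% of DAC-treated cells, and *IFITM3* reaches 21 to 50 UMIs more often in DAC-treated cells.

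Shares of cells depend on depth. The median was 27899 UMIs per cell in the mock-treated and 35340 in the DAC-treated library, cells ranged from 500 to 148446 UMIs, and 12 barcodes occurred in both libraries. When cells were divided into 3 equal groups by their total UMIs, *IFITM1* was detected in 1.68%, 6.90%, and 8.08% of mock-treated cells from the fewest to the most UMIs, and in 1.37%, 17.6%, and 23.3% of DAC-treated cells. The group with the fewest UMIs had a median of 7375 UMIs per cell in the mock-treated and 2179 in the DAC-treated library, and *IFITM1* was detected in 10 and 8 cells there. In the other groups, *IFITM1* was detected in more DAC-treated than mock-treated cells. From the fewest to the most UMIs, *IFITM2* had 92.8, 143, and 95.9 CPM in the mock-treated groups and 32.2, 84.5, and 87.1 CPM in the DAC-treated groups. For *IFITM3*, these levels were 257, 408, and 287 CPM and 189, 386, and 359 CPM. The size of the difference of *IFITM2* and the direction of that of *IFITM3* thus varied with depth. Drawing 1007 UMIs from each cell that had as many (1645 in the mock-treated and 1537 in the DAC-treated library) gave 3 UMIs of *IFITM1* in mock-treated and 16 in DAC-treated cells, which were too few for a description by cell. Cells with 10000 UMIs or more, of which no more than 50% were mitochondrial, were therefore kept for the description within cells, 1298 in the mock-treated and 1120 in the DAC-treated library. Among them, *IFITM1* was detected in 7.63% of mock-treated and 21.1% of DAC-treated cells, *IFITM2* in 89.5% and 84.3%, and *IFITM3* in 99.0% and 98.4%. When each of these cells was thinned to 10000 UMIs, *IFITM1* was detected in 2.77% of mock-treated and 8.48% of DAC-treated cells, *IFITM2* in 62.1% and 49.0%, and *IFITM3* in 88.3% and 90.4%.

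The spread between the kept cells was compared with that of an even share, in which every cell takes the same fraction of its UMIs from a gene. Of the DAC-treated cells, 884 had no UMI of *IFITM1*, against 679 from an even share, and of the mock-treated cells 1199 against 1182. No UMI of *IFITM2* was present in 176 DAC-treated cells, against 40.9 from an even share, and in 136 mock-treated cells, against 48.4. For *IFITM3*, 18 DAC-treated cells had no UMI against 0.308, and 13 mock-treated cells against 0.871. The squared coefficient of variation beyond Poisson sampling was 4.65 in mock-treated and 7.60 in DAC-treated cells for *IFITM1*, 0.692 and 0.765 for *IFITM2*, and 0.529 and 0.424 for *IFITM3*. By this last measure *IFITM1* was the most uneven member in both libraries, whereas its number of cells without a UMI was close to that of an even share in mock-treated cells.

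The members were then compared within cells. All the 99 mock-treated cells with *IFITM1* also had *IFITM3*, and 95 of them had *IFITM2* as well, but all 99 were kept cells, of which nearly all had *IFITM3* in any case (99.0%). Of the 247 DAC-treated cells with *IFITM1*, 228 had both other genes, 15 had *IFITM3* without *IFITM2*, and 4 had neither. In the kept DAC-treated cells, the median of *IFITM3* was 13 UMIs in the 884 cells without *IFITM1*, 26 UMIs in the 163 cells with 1 to 2 UMIs of *IFITM1*, and 34 UMIs in the 73 cells with 3 UMIs or more. The median total of these groups was 46480.5, 49033, and 49087 UMIs per cell. The median of *IFITM2* was 2, 5, and 6 UMIs in the same groups. Cells with more *IFITM1* thus had more of the other members at nearly the same depth. Across the kept cells, on the scale of log2(UMIs per 10000 + 1), Pearson's correlation of *IFITM2* and *IFITM3* was 0.68 over the 1298 mock-treated and 0.48 over the 1120 DAC-treated cells. For *IFITM1* and *IFITM3* it was 0.29 and 0.41. The cells of a library share its preparation, and the part of reads assigned to the wrong copy in these values was not tested. In mock-treated cells, *IFITM2* and *IFITM3* also followed the percent of mitochondrial UMIs (Pearson's correlation 0.17 and 0.21, Spearman's rho 0.28 and 0.33). In DAC-treated cells the values were -0.05 and -0.08, and -0.02 and -0.03. Its part was not tested.

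The genes closest to the members across cells were ranked by the same correlation for *IFITM2* and *IFITM3*, whose mean was at least 1 UMI per cell. In mock-treated cells, among 6412 genes, those closest to *IFITM3* were *IFITM2* (0.68), *S100A4* (0.45), which encodes a calcium-binding protein, and *ISG15* (0.41), an interferon-stimulated ubiquitin-like protein. Those closest to *IFITM2* were *IFITM3*, *S100A4* (0.41), and *CYB5B* (0.40), a cytochrome of the outer mitochondrial membrane. In DAC-treated cells, among 7910 genes, those closest to *IFITM3* were the interferon-stimulated genes *IFI6* (0.61) and *ISG15* (0.52), with *IFITM2* (0.48) after them. For *IFITM2* in DAC-treated cells they were *IFITM3*, *IFITM1* (0.32), and *METRN* (0.29), which encodes a secreted protein. *IFITM3* thus had *IFITM2* as its nearest gene in mock-treated cells and *IFI6* in DAC-treated cells. The genes ranked had a mean of 0.5 UMI or more per kept cell, which left out *IFITM1* in mock-treated cells. Their levels also differed between the libraries. *ISG15* had a mean of 8.12 UMIs per kept mock-treated and 65.9 per kept DAC-treated cell, and *IFI6* had 27.4 and 464 CPM over all cells. The part of these levels in the ranks was not tested.

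A list of 36 other interferon-stimulated genes was used to set the members beside the pathway they belong to. Of the 36 genes, 31 were higher in DAC-treated cells by 2-fold or more, against 25.8% of all genes, and none was lower by 2-fold or more. The median log2 ratio was 2.98, against 0.33 over all genes tested. Among genes with 100 UMIs or more, the highest ratios were those of *XAF1*, an apoptosis regulator with 2 UMIs in mock-treated and 800 in DAC-treated cells (ratio 338, 95% confidence interval 93.3 to 2797), *IFI27*, an interferon-induced mitochondrial protein with 234 and 51804 UMIs (187, 165 to 214), and *MX1*, an antiviral GTPase with 14 and 1279 UMIs (77.2, 45.9 to 142). The lowest were those of *ISG20*, an exonuclease (1.11, 1.03 to 1.20), and *LGALS3BP*, a secreted glycoprotein (1.36, 1.32 to 1.40). Like *IFITM3*, *ISG20* was lower than the typical gene by median-of-ratios scaling. *IFITM1*, at 2.03 on the log2 scale, was below the median of this list, and *IFITM3* (0.15) and *IFITM2* (-0.41) were close to or below its lowest value.

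The kept cells of each library were divided into 3 equal groups by the summed level of these 36 genes. In DAC-treated cells, the list had 1094 CPM in the lowest group, 2824 CPM in the middle group, and 7562 CPM in the highest group, and in mock-treated cells it had 353, 581, and 984 CPM. A few genes carried the sum, and they differed between the libraries. Over all cells, *ISG15* (1280.1 CPM), *IFI27* (877 CPM), and *IFI6* (464 CPM) were the highest of 3542 CPM in DAC-treated cells, and *ISG15* (217 CPM) and *LGALS3BP* (162 CPM) the highest of 609.7 CPM in mock-treated cells, so that the groups do not weigh genes alike in both libraries. All 3 members were higher in the groups with more of the list. In DAC-treated cells, *IFITM1* had 1.63 CPM (95% confidence interval 1.10 to 2.33) in the lowest, 6.44 CPM (5.35 to 7.69) in the middle, and 25.2 CPM (22.9 to 27.7) in the highest group, a ratio of the highest to the lowest of 15.5 (10.7 to 23.2). It was detected in 5.88%, 18.2%, and 39.1% of the cells of these groups, and 58 of the 73 kept cells with 3 UMIs or more were in the highest group. In mock-treated cells, *IFITM1* had 1.37 CPM (0.867 to 2.05), 1.73 CPM (1.14 to 2.52), and 4.97 CPM (3.90 to 6.25), a ratio of 3.63 (2.25 to 6.08). *IFITM3* was 2.53-fold (2.44 to 2.62) higher in the highest than in the lowest group of DAC-treated cells and 2.42-fold (2.32 to 2.51) higher in mock-treated cells. For *IFITM2*, these values were 1.81-fold (1.68 to 1.94) and 2.41-fold (2.25 to 2.58). The members thus differed most in how steeply they followed the list in DAC-treated cells, with *IFITM1* the steepest and *IFITM2* the least steep.

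The groups were cut within each library, so those of the same rank do not match in the level of the list. The lowest DAC-treated group (1094 CPM of the list) was above the highest mock-treated group (984 CPM). *IFITM1*, *IFITM2*, and *IFITM3* had 1.63, 64.0, and 230 CPM in the former and 4.97, 169, and 504 CPM in the latter. Between groups of the same rank, the ratio of *IFITM1* in DAC-treated to mock-treated cells was 1.19 (0.669 to 2.15) in the lowest, 3.72 (2.44 to 5.87) in the middle, and 5.07 (3.95 to 6.59) in the highest groups. In the lowest groups a difference of *IFITM1* was not detectable at this depth, although the list itself was higher there in DAC-treated cells. The ratio of *IFITM2* was 0.913 (0.842 to 0.991), 0.766 (0.717 to 0.819), and 0.685 (0.645 to 0.727), so that its lower level was larger in extent between the groups of higher rank. The ratio of *IFITM3* was 1.10 (1.05 to 1.15), 1.08 (1.04 to 1.12), and 1.15 (1.12 to 1.19). For each 100 UMIs of *IFITM3*, DAC-treated cells had 0.709, 1.85, and 4.33 UMIs of *IFITM1* from the lowest to the highest group, and mock-treated cells had 0.656, 0.536, and 0.986.

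**Figure D4:**
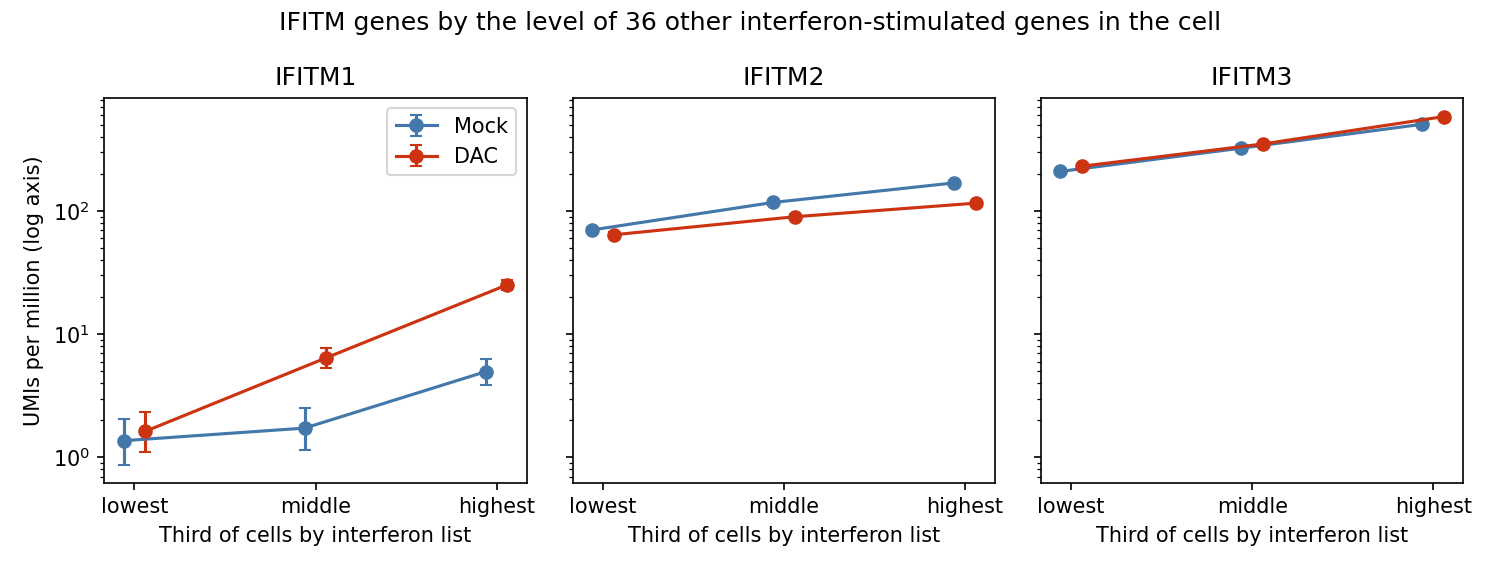
Level of *IFITM1*, *IFITM2*, and *IFITM3* in CPM (log axis) in 3 equal groups of kept cells ordered by the summed level of 36 other interferon-stimulated genes, in mock-treated (blue) and DAC-treated (red) cells, with exact Poisson 95% intervals. *IFITM1* in DAC-treated cells goes from 1.63 to 25.2 CPM, while the red points of *IFITM2* lie below the blue ones in each group.

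The promoters are shown because the members share an interferon-responsive family but differed between the libraries. RefSeq sequences of GRCh38.p14 from 250 bases before to 50 bases after the start site were present for *IFITM1* and *IFITM3*, and they were identical at 72.7% of 271 aligned bases. The promoter set used had no entry of this length for *IFITM2* or *IFITM10*. The promoter of *IFITM2*, the member that was lower in DAC-treated cells, could therefore not be compared. Matches of the core of the interferon-stimulated response element, searched on both strands as GAAA, any 2 bases, and GAAA again, are in capitals.
*IFITM1*, chr11:313790-314089, plus strand: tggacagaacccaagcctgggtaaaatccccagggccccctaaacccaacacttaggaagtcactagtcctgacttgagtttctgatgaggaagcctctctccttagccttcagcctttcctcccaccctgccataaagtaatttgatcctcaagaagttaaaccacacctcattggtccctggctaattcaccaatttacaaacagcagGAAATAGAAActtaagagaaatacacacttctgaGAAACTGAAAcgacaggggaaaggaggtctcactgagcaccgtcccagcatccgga
*IFITM3*, chr11:320811-321110, minus strand: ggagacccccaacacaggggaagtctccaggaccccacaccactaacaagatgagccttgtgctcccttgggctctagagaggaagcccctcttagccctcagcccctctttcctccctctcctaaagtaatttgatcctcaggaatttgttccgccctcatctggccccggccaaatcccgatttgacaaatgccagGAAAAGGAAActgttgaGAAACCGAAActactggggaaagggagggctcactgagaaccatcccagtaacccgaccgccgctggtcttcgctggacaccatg
Each promoter had 2 matches, all on the strand of the gene, starting 40 and 6 bases before the start site in *IFITM1* and 52 and 35 bases before it in *IFITM3*. A match was present in 3.57% of all 35116 promoters of the same length and in 61.9% of the 42 promoter entries of the interferon-stimulated list. The GAS motif, searched as TTCNNNGAA on both strands, matched in *IFITM1* at 1 place and not in *IFITM3*, and was present in 7.66% of all promoters and in 8 of the 42 entries of the list. *IFITM1* had 3 CpG sites and *IFITM3* had 8 in this window, against a median of 14 over all promoters and 10 over those of the list. DNA methylation was not measured in these libraries.

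Genes that carry or control the interferon signal were examined in the same way. Of 20 genes for interferon receptors, kinases, and transcription factors, 3 were higher in DAC-treated cells by 2-fold or more and none was lower, against 25.8% and 8.12% of all genes, with a median log2 ratio of 0.24 against 0.33. The higher genes included *IRF7* (ratio 8.01, 95% confidence interval 7.22 to 8.92) and *IRF9* (2.28, 1.97 to 2.64), which encode transcription factors that act at interferon-responsive promoters. The lowest were the receptor gene *IFNGR1* (0.722, 0.652 to 0.798) and the kinase gene *JAK1* (0.751, 0.714 to 0.790). Of 14 genes for proteins that modify, traffic with, or bind IFITM proteins, none differed by 2-fold, against the same 25.8% and 8.12%, and the median log2 ratio was 0.15. The highest were *VCP* (1.98, 1.90 to 2.06), an ATPase that extracts ubiquitinated proteins, and the tetraspanin genes *CD9* (1.89, 1.83 to 1.94) and *CD81* (1.58, 1.55 to 1.61). *CD81* protein is a partner of *IFITM1* protein at the cell surface. The lowest were *NEDD4* (0.637, 0.555 to 0.730), a ubiquitin ligase of *IFITM3* protein, and *FYN* (0.671, 0.598 to 0.753), a tyrosine kinase.

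Neighbors on chromosome 11 and relatives in sequence were examined in the same manner. Of 16 neighbors of the cluster with 10 UMIs or more, 5 were higher in DAC-treated cells by 2-fold or more and 1 was lower, against 25.8% and 8.12% of all genes, with a median log2 ratio of 0.43 against 0.33. These counts were near those of genes in general. The highest were *HRAS*, a GTPase (3.04, 95% confidence interval 2.92 to 3.16), *RASSF7* (2.62, 2.41 to 2.85), and *RIC8A*, a G protein chaperone (2.59, 2.38 to 2.82), followed by *PHRF1* (2.17) and *PSMD13* (2.11). The lowest were *SIRT3*, a mitochondrial deacetylase (0.401, 0.337 to 0.475), and *PKP3*, a desmosome protein (0.614, 0.579 to 0.651). Near *IFITM10*, 4 of 8 genes were higher by 2-fold or more, against 25.8% of all genes, namely *LSP1*, *SYT8*, *TNNI2*, and *TNNT3*, with 26, 4, 2, and 0 UMIs in mock-treated and 77, 40, 41, and 55 UMIs in DAC-treated cells. The 4 genes with 100 UMIs or more were closer to equal, with ratios in the order *MOB2* (1.63), *CTSD* (1.62), *DUSP8* (1.36), and *MRPL23* (1.36). The annotated region of *IFITM10* overlaps a gene on the same strand, ENSG00000250644, which had 10 UMIs in mock-treated and 3 in DAC-treated cells. Another annotated gene, ENSG00000288681, overlaps *IFITM1* and *IFITM2* on their strand in GENCODE release 44 and was not listed in the deposited tables. Of 8 genes of the wider dispanin family, to which the IFITM genes belong, 4 had 10 UMIs or more, and *TMEM233*, with 0 UMIs in mock-treated and 39 in DAC-treated cells, was higher and *PRRT1* lower by 2-fold or more, against 25.8% and 8.12% of all genes. The ratios of those with 100 UMIs or more were, in turn, *PRRT1* (0.356, 0.259 to 0.483), *TMEM91* (0.593, 0.466 to 0.751), and *PRRT2* (0.695, 0.544 to 0.887).

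The identity of the line was examined by markers. All 6 epithelial markers were present in both libraries, with a summed level of 4943 CPM in mock-treated and 7965 CPM in DAC-treated cells. The higher sum was mostly that of *KRT18* (2029.6 and 4280.5 CPM) and *KRT8* (1094 and 1895 CPM), whereas *EPCAM* was lower in DAC-treated cells (349 and 222 CPM). The 5 leukocyte markers summed to 0.421 and 3.62 CPM, the 3 endothelial markers to 0.120 and 1.91 CPM, and the 3 fibroblast markers to 10.7 and 19.5 CPM, nearly all of it *COL1A1*. *PTPRC*, which defines leukocytes, had 0 UMIs in mock-treated and 16 UMIs in DAC-treated cells, and *CD3E*, *PECAM1*, *CDH5*, *COL1A2*, and *DCN* were also at 0 in mock-treated cells. The markers of other cell types were higher in the DAC-treated library, as *IFITM1* was, and their part in its level was not tested.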

How the data were processed

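Single cells of mock- and DAC-treated HCT116 were profiled by scRNA-seq in 1 library each. The authors used Cell Ranger with hg38, and the deposited values were whole UMI counts for 33538 genes in each cell, without normalization; the annotation and any filter on cells were not given in the sources used here. UMI counts were summed over all deposited cells and scaled to the 49911689 (mock) or 59046165 (DAC) UMIs of the library. Intervals were exact Poisson, Clopper-Pearson, or conditional binomial at the 95% level, for counting error only. A ratio was given where a library had more than 3 UMIs. Doublets were not called, since those of a single line carry no marker; dropping the top 5% of cells by UMIs was tried. Ratios, their intervals, and thinning were tested on simulated data. Positions and transcripts were from GENCODE release 44, promoters from RefSeq, and windows were searched with BLAST 2.17.0. Python 3.11.15, numpy 2.4.6, scipy 1.17.1, pandas 2.3.3, Biopython 1.88, and matplotlib 3.10.9 were used. The named genes were the members, *IFITM5*, the 3 highest and 2 lowest ratios of each list among genes with 100 UMIs or more, and the 3 genes closest to each member, of which 1 gene of a list is not reported here; other genes were chosen after their values were seen. The members and lists were chosen with earlier results of these data known. Alternatives were median-of-ratios scaling over 15087 genes, mean per-cell CPM, thinning, 3 UMIs or more, other UMI minimums for the gene counts, and filters on cells; thinning kept cells to 10000 UMIs was added after the data were seen.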

Additional observations from a re-analysis of the deposited data

How the results depend on the processing

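*IFITM1* stayed higher and *IFITM2* stayed lower in DAC-treated cells under each alternative run, and *IFITM3* changed direction under median-of-ratios scaling, from a log2 ratio of 0.15 to -0.032. Thinning cells to 1007 UMIs dropped the 138 (mock) and 214 (DAC) that had fewer, and gave log2 ratios of 2.51 for *IFITM1*, -0.75 for *IFITM2*, and 0.21 for *IFITM3*, a share of *IFITM1* within the family that was 2.03 percentage points higher in place of 1.65, and differences in the share of cells of 0.728, -4.07, and 3.46 percentage points in place of 8.55, -10.3, and -1.75. A limit of 20% on mitochondrial UMIs gave log2 ratios of -0.29 for *IFITM2* and 0.34 for *IFITM3*, with shares of cells -14.1 and -7.28 points apart. Keeping cells of at least 10000 UMIs and at most 50% mitochondrial UMIs gave differences in the share of cells of 13.4 points for *IFITM1* and -5.24 for *IFITM2*. Thinning these cells to 10000 UMIs, chosen after the data were seen, gave 5.71 points for *IFITM1* and 2.07 for *IFITM3*, and log2 ratios of -0.62 for *IFITM2* and 0.11 for *IFITM3*. With 3 UMIs or more, the differences were 4.0 points for *IFITM1* and -7.06 for *IFITM2*. Median-of-ratios scaling gave -0.59 for *IFITM2*, and the mean of per-cell CPM gave 0.23 for *IFITM3*. The sign of the difference in the share of cells with *IFITM3* therefore changed with thinning. With 1000 UMIs or more in place of 10, 11.9% of genes were higher and 4.95% lower by 2-fold or more. The other 31 values stayed within the counting interval of the main value or, for gene shares, within 1.5 times of it; the causes were not tested. *IFITM10* gave no ratio. No paired analysis was possible because each condition had 1 library.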
